A study of Rattus norvegicus with 9 samples.

Results

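The comparison was between neural stem cells (NSCs) given exosomes of Wnt5a-overexpressing bone marrow mesenchymal stem cells (BMSCs) and NSCs kept in differentiation medium alone. Its members were all genes that passed a filter on low counts in the 6 libraries compared, which kept 15089 of the 23953 genes in the deposited table. Of these, 13718 were protein-coding and 1371 were non-coding, and the other 8864 genes had too few counts to be tested.

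All cells were labelled as rat NSCs from the spinal cord, which the study isolated from newborn animals and differentiated in medium with growth factors and serum. In the Con group (n = 3 libraries) nothing was added to the differentiation medium. In the pLV-Exo-Wnt5a group (n = 3) the medium held exosomes, small membrane vesicles that cells release, from rat BMSCs carrying a lentiviral vector for rat Wnt5a. The Exo group (n = 3), given exosomes of BMSCs that per the study's methods carried the empty vector, is used here only for values set side by side. Since the Con cells received no exosomes, the supply of exosomes and their change by Wnt5a differ together between the compared groups and cannot be told apart in this comparison. The labels do not say whether the 3 libraries of a group came from separate cultures, so p-values measure the spread between these libraries, which may be technical.

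Wnt5a is a secreted ligand that acts mainly through Frizzled and Ror receptors, without β-catenin, on cell polarity, movement and calcium signaling. NSCs in differentiation medium give rise to neurons, astrocytes and oligodendrocytes. Astrocytes exposed to inflammatory signals take on a reactive state, in which intermediate filaments, protease inhibitors, complement and antigen-presentation genes are switched on, largely through the transcription factors STAT3 and NF-κB and through interferon signaling. NF-κB is a family of dimeric transcription factors held in the cytoplasm by IκB proteins until a signal releases them.

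The total count per library was between 32765138 (Con replicate 3) and 40427647 (pLV-Exo-Wnt5a replicate 3). Levels are given as CPM, counts scaled by TMM to a common library size, on which a floor of 3 counts, the most that a count of 0 allows, was at 0.0727 to 0.0913 CPM, for counting error alone. The pLV-Exo-Wnt5a libraries are called the treated libraries below, and log2FC is always that of the treated over the Con group unless said otherwise. Con replicate 1 stood apart, at a mean distance of 73.3 on the log2 CPM scale from the other 5 compared libraries, against 60.1 to 63.3 for each of those 5. Without it, Gfap, Clu, H2-K1, Fos, Slc6a11 and Bcan also passed in edgeR, among the genes named, and their values are given with and without it. The 16 forebrain genes listed were all tested. Of 24 Hox genes that mark the spinal cord, 7 were in the table, none passed the filter, and their summed level was at most 0.0547 CPM in any library, so the labelled tissue is not borne out by its defining genes. The table names genes by mouse symbols although the cells are labelled as rat.

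With the quasi-likelihood test of edgeR and a Benjamini-Hochberg adjusted p (Q) under 0.05, 13 genes differed between the groups, 0.0862% of the genes tested. The level of 12 genes rose in the treated group (0.0795%) and that of 1 fell (0.00663%). Of the 12, 10 rose more than 2-fold (0.0663%). No gene fell by that much at this threshold in edgeR (0%), against 48 genes at an unadjusted p under 0.05, 5 at Q under 0.05 in DESeq2 and 14 in limma voom with sample quality weights. The 13 genes were the protease inhibitors Serpina3n and Serpina3i, the complement component C4b, the class I antigens H2-D1 and H2-Q4, the sphingosine-1-phosphate receptor S1pr3, the glycosyltransferase Ggta1, the chemokine Ccl6, the imprinted RNA H19, the matrix proteins Tnn and Tnc, the guanine nucleotide exchange factor Net1 and the homeobox gene Hopx. At any fold change, DESeq2 passed 79 genes at an adjusted p under 0.05 (0.524%), 52 higher (0.345%) and 27 lower (0.179%), and voom 287 (1.9%), 172 higher (1.14%) and 115 lower (0.762%). Across all genes tested the balance was even, with 7663 higher, 7426 lower and a median log2FC of 0.004.

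**Figure D1:**
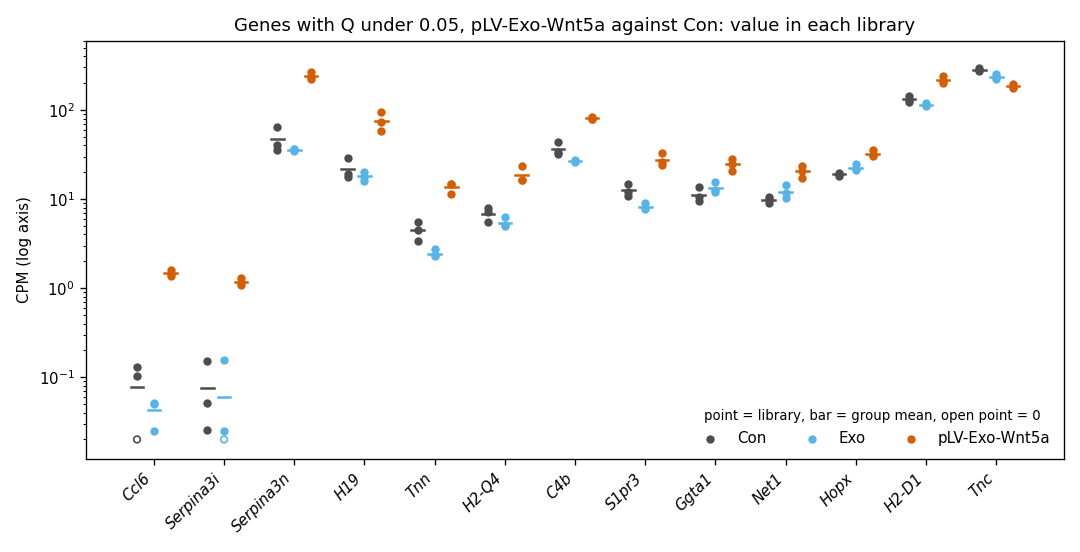
CPM (log axis) of the 13 genes with Q under 0.05 in each library, ordered by log2FC, with points for libraries, bars for group means and open points for a value of 0. In all 13 genes the treated libraries do not overlap the Con libraries, and Tnc is the gene in which they are lower.

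Serpina3n (NCBI mouse gene number 20716), a secreted serine protease inhibitor made by reactive astrocytes, had the smallest Q. Its level was 65.1, 35.2 and 40.2 CPM in Con replicates 1 to 3 and 234, 224 and 266 CPM in treated replicates 1 to 3. Every treated library was thus above every Con library, as in 7.67% of all genes tested, while 9.41% lay below it in the same way, and the highest Con value came from replicate 1. The log2FC was 2.35 (SE, its standard error, 0.20, edgeR Q = 0.000912, Benjamini-Hochberg adjusted), a 5.11-fold higher level. C4b (12268), a component of the classical complement pathway, was at 43.1, 33.7 and 31.9 CPM in the Con libraries and at 79.7, 84.0 and 79.9 CPM in the treated libraries. Its 3 treated values lay close together, well above the Con range, with a log2FC of 1.15 (SE 0.12, edgeR Q = 0.00693).

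Among genes of antigen presentation, H2-D1 (14964), which encodes a heavy chain of MHC class I, was at 143, 122 and 128 CPM in the Con libraries and at 210, 202 and 239 CPM in the treated libraries. The groups did not overlap, and the log2FC was 0.72 (SE 0.10, edgeR Q = 0.0201). H2-Q4 (15015), a related class I gene of lower abundance, was at 7.99, 7.06 and 5.54 CPM against 16.5, 16.3 and 23.7 CPM, with a log2FC of 1.44 (Q = 0.0201 from edgeR). Class I genes are near-identical to each other, as are the Serpina3 and the C4 genes. The submitters' notes name RSEM and the study's methods HISAT2. Which tool assigned the reads shared between such copies is thus not settled, and the values of single members are uncertain.

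S1pr3 (13610), a receptor for the lipid sphingosine-1-phosphate, was at 14.6, 10.9 and 11.9 CPM in the Con libraries and at 26.1, 23.8 and 32.9 CPM in the treated libraries (log2FC 1.14, Q = 0.0278 from edgeR). It was the 1 member that passed among the 11 tested genes for this lipid's receptors and enzymes, which had a median log2FC of -0.02. Ggta1 (14594), which adds galactose to cell-surface glycans, was at 10.6, 9.43 and 13.6 CPM against 24.7, 20.7 and 28.2 CPM (log2FC 1.12, Q = 0.0285). Neither gene overlapped between the groups. H19 (14955), an imprinted non-coding RNA abundant in fetal tissue, was at 28.6, 19.1 and 17.5 CPM in the Con libraries and at 73.8, 57.9 and 94.4 CPM in the treated libraries, with a log2FC of 1.78 (SE 0.21, edgeR Q = 0.0102). Its neighbour Igf2, an imprinted growth factor gene, had a mean of 2.59 CPM in the Con group and 3.82 CPM in the treated group, with a log2FC of 0.56 that did not pass (Q = 0.585 from edgeR). Of the 19 imprinted genes tested, 12 were higher and 7 lower. H19 was the 1 that passed in edgeR and in DESeq2, while 1 higher and 1 lower gene passed in limma voom.

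The 1 gene that fell, Tnc (21923), encodes tenascin-C, a matrix glycoprotein of progenitors and immature astrocytes. It was at 279, 298 and 270 CPM in the Con libraries and at 178, 182 and 195 CPM in the treated libraries. All 3 treated libraries were below all 3 Con libraries, with a log2FC of -0.62 (SE 0.08, edgeR Q = 0.0201). Tnn (329278), which encodes tenascin-N of the same family, moved the other way, from 5.50, 4.50 and 3.38 CPM to 14.6, 11.4 and 14.8 CPM, a log2FC of 1.60 (Q = 0.0201 from edgeR). CPM is not scaled by gene length, so the levels of both tenascins are not compared with each other. Hopx (74318), a marker of some neural stem cells and astrocytes, was at 19.7, 18.9 and 17.96 CPM against 30.6, 35.6 and 31.0 CPM (log2FC 0.77, Q = 0.0360 from edgeR). Net1 (56349), which activates RhoA, was at 10.02, 8.96 and 10.6 CPM against 20.9, 17.3 and 23.6 CPM (log2FC 1.06, Q = 0.0278 from edgeR).

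Both other genes that rose were near the detection limit in the Con group. Ccl6 (20305), a chemokine of myeloid cells, had 5, 4 and 0 counts in the Con libraries and 57, 58 and 56 counts in the treated libraries (Q = 0.0285 from edgeR). Serpina3i had 2, 1 and 5 counts against 46, 40 and 53 counts (Q = 0.0285 from edgeR). Their fitted log2FC, 4.11 and 3.94, rest on these few Con counts and on the prior count of the fit. Lcn2, an iron-binding acute phase protein of reactive astrocytes, had at most 3 counts in any Con library, and its lowest treated level, set against 3 counts in Con replicate 3, was at least 5.80-fold higher, but it did not pass (Q = 0.0749 from edgeR).

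Rat promoters are shown for 4 of the 13 genes, the pair with the smallest Q, the gene that fell and the 1 gene with an interferon-type motif. They come from RefSeq, build GRCr8, and hold the 250 bases before the transcription start of the rat gene with the same symbol. Of the 13 genes 9 had an entry, and of the 15089 tested genes 10691. Capitals mark matches, on either strand, to a STAT motif (TTCNNNGAA), a core of the interferon-stimulated response element (GAAANNGAAA) or a core of the NF-κB motif (GGGNNNNNCC). The promoters lie at chr6:129088142-129088391 (Serpina3n, plus strand), chr20:4201729-4201978 (C4b, plus strand), chr14:31429163-31429412 (Hopx, plus strand) and chr5:82476132-82476381 (Tnc, minus strand).
Serpina3n: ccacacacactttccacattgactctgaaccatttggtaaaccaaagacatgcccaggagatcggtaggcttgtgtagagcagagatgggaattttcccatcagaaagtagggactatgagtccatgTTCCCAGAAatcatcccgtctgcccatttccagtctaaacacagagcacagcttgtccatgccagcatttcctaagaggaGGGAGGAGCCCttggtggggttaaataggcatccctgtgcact
C4b: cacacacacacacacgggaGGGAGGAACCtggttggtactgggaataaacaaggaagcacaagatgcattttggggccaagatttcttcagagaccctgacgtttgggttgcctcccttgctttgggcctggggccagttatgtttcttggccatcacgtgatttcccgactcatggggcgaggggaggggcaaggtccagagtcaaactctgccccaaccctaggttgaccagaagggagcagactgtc
Hopx: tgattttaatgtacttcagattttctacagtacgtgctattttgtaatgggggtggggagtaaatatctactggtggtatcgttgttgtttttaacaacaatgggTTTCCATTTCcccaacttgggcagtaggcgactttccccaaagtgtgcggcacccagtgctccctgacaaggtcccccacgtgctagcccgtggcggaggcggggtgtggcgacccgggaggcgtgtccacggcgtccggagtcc
Tnc: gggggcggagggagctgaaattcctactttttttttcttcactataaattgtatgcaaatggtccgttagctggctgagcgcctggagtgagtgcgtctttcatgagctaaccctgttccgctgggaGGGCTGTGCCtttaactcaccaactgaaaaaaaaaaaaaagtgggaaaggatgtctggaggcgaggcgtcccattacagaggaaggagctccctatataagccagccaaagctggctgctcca

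The STAT match of Serpina3n ended 115 bases before the start of the gene, and it was the 1 STAT match among the 9 promoters. STAT matches were in 7.52% of 27457 rat promoters of this length and in 5.69% of those of tested genes. Nearer to its start, Serpina3n held a run with 2 overlapping NF-κB matches. The interferon-type match of Hopx is read on the other strand, and that motif was in 3.29% of the promoters and in 2.4% of those of tested genes. The NF-κB core was in 8 of the 9 promoters but also in 43.5% of all promoters and in 61.0% of those of tested genes, and the promoter of Tnc, which fell, held it as well. These matches are descriptions of letters in rat sequence and were not tested against the changes.

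By abundance, the 13 genes were spread over the whole range. The tested genes were put into 4 classes of equal size by mean level. Of the lowest class (0.22 to 3.21 CPM) 2 genes rose, of the next 4, of the one above it 4, and of the highest (63.0 to 7381 CPM) 2 rose and 1 fell. A longer list took genes whose unadjusted p was under 0.05 and whose log2FC was beyond 0.58 in size, which 326 genes (2.16%) passed, 221 higher (1.46%) and 105 lower (0.696%). This list sat mainly among scarce genes, with a median of 1.97 CPM for its higher and 1.47 CPM for its lower members. The lowest class held 138 of its higher and 75 of its lower genes, and the highest class 8 and 4. The median standard error of the log2FC was 0.43 in the lowest class and 0.09 in the highest. Without the fold limit, an unadjusted p under 0.05 gave the reverse balance among abundant genes, with 151 higher and 313 lower in the highest class against 139 higher and 76 lower in the lowest. Over all classes this threshold gave 1260 genes (8.35%), 634 higher (4.20%) and 626 lower (4.15%). This count was 627 without treated replicate 1 and 2218 without Con replicate 3 (1302 higher, 916 lower), the extremes with 1 library left out. It was 2816 in voom, so the shares set beside the gene lists below depend on the libraries and the tool.

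**Figure D2:**
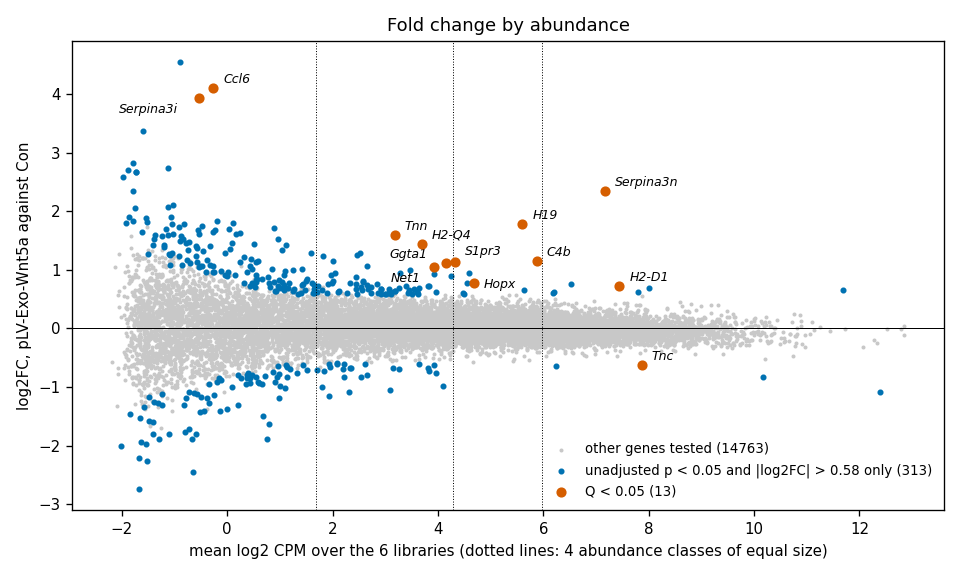
log2FC of pLV-Exo-Wnt5a against Con (y axis) against the mean log2 CPM over the 6 libraries (x axis) for the 15089 genes tested, with the 13 genes at Q under 0.05 in orange and the other 313 genes of the longer list in blue. The blue points widen toward low abundance, and the orange points lie above 0 except Tnc.

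In summed level, the higher genes of the longer list went from 3968 to 6654 CPM and the lower ones from 9519 to 4736 CPM between the group means. A few genes carried most of this. Gfap, the intermediate filament of astrocytes, was at 3055, 2262 and 2303 CPM in the Con libraries and at 3970, 4082 and 4029 CPM in the treated libraries. The groups did not overlap, yet the log2FC of 0.66 (SE 0.12) did not pass in edgeR (Q = 0.129), while it passed in DESeq2 (adjusted p = 0.000133). Con replicate 1 was the Con library nearest to the treated ones, and without it Gfap passed in edgeR with a log2FC of 0.82 (Q = 3.79e-05). The Exo libraries were at 2223, 2205 and 2278 CPM, and against them Gfap passed as well (log2FC 0.86, Q = 3.36e-05 from edgeR). The largest loss was of Gm26917, a non-coding locus that collects ribosomal RNA reads in mouse annotation, at 8675, 5776 and 7524 CPM in the Con libraries and 3922, 3943 and 2511 CPM in the treated libraries (log2FC -1.09, Q = 0.0710 from edgeR, 0.0453 without Con replicate 3, adjusted p = 4.53e-07 in DESeq2). Together with Lars2, Gm15564 and AY036118, the last 3 set beside it after the data were seen, it took 0.706% to 1.00% of the counts in the Con libraries, 0.606% to 1.23% in the Exo libraries and 0.317% to 0.503% in the treated libraries. The part of this difference in other results was not tested beyond leaving these loci out of the fit, after which 13 genes passed, the same 13 as with them.

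The reactive astrocyte list held 31 tested genes, 27 of them higher and 4 lower, with a median log2FC of 0.84. Of these, 5 rose at Q under 0.05 in edgeR (Serpina3n, C4b, H2-D1, S1pr3 and Ggta1), 9 were higher at that threshold in DESeq2 and 11 in voom, and 18 were higher and none lower at an unadjusted p under 0.05, which 4.20% of all tested genes reached in the higher direction. The median was 0.88 without Con replicate 1, with 20 higher at that p, and 0.66 with treated replicate 3 left out, where 16 were higher and 1 lower. Members that did not pass in edgeR include Gbp2, a guanylate-binding protein induced by interferon (log2FC 1.29, Q = 0.136), and Cd44, a hyaluronan receptor (0.89, Q = 0.263, both from edgeR). Vim, the filament gene vimentin, was at a mean of 1725 CPM in the Con and 2045 CPM in the treated group (log2FC 0.24, Q = 0.649). Lcn2, a member with 3, 1 and 0 counts in the Con libraries, passed the filter through the treated libraries alone. Such a gene can enter the count only as higher. Since the list was written with earlier results of these data known, its count is a description and no independent evidence of a direction. In bulk libraries, fewer or more cells of a type and less or more RNA per cell cannot be told apart.

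Genes of resting astrocytes did not share this direction. Of 25 tested, 8 were higher and 17 lower, with a median log2FC of -0.11 that was -0.01 without treated replicate 2. None passed Q under 0.05 in edgeR or DESeq2. At an unadjusted p under 0.05, 1 was higher and 4 were lower, against 4.20% and 4.15% of all tested genes. In voom 1 higher and 3 lower passed, against 1.14% and 0.762%. The summed level was 15860 to 18266 CPM in the Con libraries and 14797 to 15345 CPM in the treated libraries. Fgfr3, a growth factor receptor of astrocytes, had a log2FC of -0.37 (Q = 0.354 from edgeR), and Slc1a3, a glutamate transporter, one of -0.01. F3, the initiator of blood clotting called tissue factor, had the other direction, at a mean of 25.4 CPM in the Con group and 34.2 CPM in the treated group without overlap (log2FC 0.43, Q = 0.354 from edgeR). A pair of genes outside the list were among those of smallest p in the lower direction. Slc6a11, the GABA transporter GAT-3 of astrocytes, was at 809, 767 and 760 CPM against 609, 553 and 578 CPM (log2FC -0.43, Q = 0.141), and Agt, angiotensinogen, at 110, 85.1 and 81.2 CPM against 63.0, 51.1 and 63.5 CPM (log2FC -0.65, Q = 0.209). Neither of these passed in edgeR with all libraries, although their libraries did not overlap, and Slc6a11 passed without Con replicate 1 (log2FC -0.40, Q = 0.0347). Both passed in DESeq2 (adjusted p = 0.00221 for Slc6a11 and 0.00309 for Agt).

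**Figure D3:**
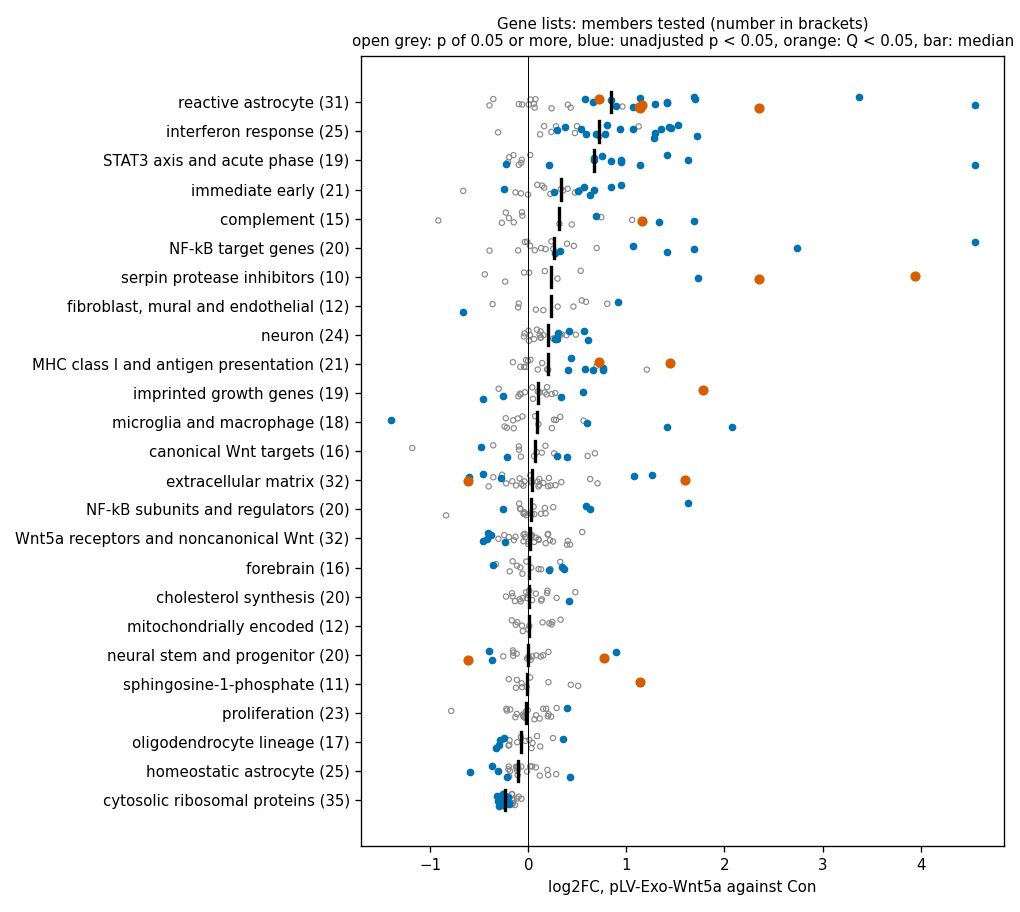
log2FC of pLV-Exo-Wnt5a against Con (x axis) for the tested members of each gene list (y axis, number tested in brackets), with grey open points for an unadjusted p of 0.05 or more, blue points for p under 0.05, orange points for Q under 0.05 and a bar at the median. The reactive astrocyte list has the highest median (0.84) and the ribosomal protein list the lowest (-0.23).

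Genes of the interferon response were higher in 24 of 25 cases, with a median log2FC of 0.72. At an unadjusted p under 0.05, 16 were higher and none lower, against 4.20% and 4.15% of all tested genes. They include scarce members such as Xaf1, at a mean of 0.211 CPM in the Con and 0.557 CPM in the treated group. No member passed Q under 0.05 in edgeR, against 7 in DESeq2 and 8 in voom, all higher. Of all tested genes, 0.345% and 1.14% passed as higher with these tools. Oasl2, a relative of the antiviral oligoadenylate synthetases, came nearest at 3.61, 2.54 and 3.74 CPM in the Con libraries and 8.68, 7.06 and 8.38 CPM in the treated libraries (log2FC 1.28, Q = 0.0508 from edgeR, and 0.0376 without Con replicate 3). Ifi27, an interferon-induced gene, was at 10.5, 10.7 and 9.83 CPM against 18.8, 16.3 and 24.3 CPM (0.93, Q = 0.0787), and Usp18, which removes the ubiquitin-like protein ISG15 and restrains the pathway, at 0.779, 0.771 and 0.944 CPM against 2.75, 2.22 and 3.27 CPM (1.72, Q = 0.0684). None of these 3 genes overlapped between the groups. The summed level of the list was 160 to 168 CPM in the Con libraries and 205 to 268 CPM in the treated libraries, with the highest value in replicate 3. Without that replicate the median was 0.51, with 10 members higher at an unadjusted p under 0.05.

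Of 21 genes of class I antigen presentation, 15 were higher and 6 lower, with a median log2FC of 0.20. H2-D1 and H2-Q4 passed in edgeR, 4 members in DESeq2 and 6 in voom, all higher. H2-K1, the other classical heavy chain, had a log2FC of 0.76 (Q = 0.104 from edgeR), which was 0.89 without Con replicate 1 (Q = 0.0257). B2m, the light chain shared by all of them, had one of 0.65 (Q = 0.269 from edgeR), and both passed in DESeq2 (adjusted p = 0.000133 and 0.0106). The transporter genes Tap1 and Tap2, which bring peptides to class I molecules, had log2FC of 0.41 and 0.44, and Psme1 and Psme2, activators of the proteasome, -0.04 and 0.00. The median was 0.35, 0.32 and 0.41 when Con replicate 1, Con replicate 3 or treated replicate 2 was left out, and 0.12 when treated replicate 3 was.

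Among 15 complement genes, C4b rose in edgeR and 3 genes were called higher in DESeq2 as in voom, and 8 were higher and 7 lower with a median log2FC of 0.32, which was -0.06 when at least 10 counts were required in every library. Leaving out Con replicate 1 or 2 gave 0.16 or 0.51, and leaving out treated replicate 3 gave 0.15. Clu, the complement-binding chaperone clusterin, was at 244, 167 and 173 CPM against 303, 338 and 311 CPM (log2FC 0.69, Q = 0.152 from edgeR). Without Con replicate 1 it passed, with a log2FC of 0.90 (Q = 0.000219 from edgeR). Serping1, the inhibitor of C1, had a log2FC of 1.33 (Q = 0.277). The genes for C1q, the first protein of the pathway, were lower, with log2FC of -0.15 (C1qa), -0.23 (C1qb) and -0.06 (C1qc), none of which passed. Among 10 protease inhibitor genes of the serpin family, Serpina3n and Serpina3i rose, and the median log2FC was 0.23. This median rested on single libraries, since it was 0.04 or 0.58 when Con replicate 1 or 3 was left out and 0.45 or 0.13 when treated replicate 1 or 3 was, and it was 0.01 with at least 10 counts in every library.

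The list for the STAT3 axis and the acute phase had 12 higher and 7 lower genes of 19, a median log2FC of 0.67 and none at Q under 0.05 in edgeR. At an unadjusted p under 0.05, 11 were higher and 1 lower, against 4.20% and 4.15% of all tested genes. In DESeq2 2 higher genes passed (0.345% of all tested genes), and in voom 9 higher and 1 lower (1.14% and 0.762%). The median was 0.12 when at least 10 counts were required in every library. Cebpd, an acute phase transcription factor, was at 7.37, 5.98 and 6.30 CPM against 11.7, 10.6 and 15.7 CPM (log2FC 0.95, Q = 0.150 from edgeR, adjusted p = 0.000649 in DESeq2). Socs3, the feedback inhibitor of the pathway, had a log2FC of 0.67 (Q = 0.478), and Stat3 itself 0.21 (Q = 0.597). Immediate early genes were higher in 16 of 21 cases with a median log2FC of 0.33, which was 0.20 without treated replicate 1. None passed in edgeR, against 3 in DESeq2 and 4 in voom, all higher. At an unadjusted p under 0.05, 7 were higher and 1 lower, and the shares over all tested genes are those just given. Fos, a subunit of AP-1, was at 19.03, 14.8 and 14.9 CPM against 34.8, 25.6 and 34.4 CPM (log2FC 0.95, Q = 0.0659 from edgeR). Without Con replicate 1 Fos passed with a log2FC of 1.09 (Q = 0.0174 from edgeR), while Jun had a log2FC of 0.00 with all libraries.

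The study named the NF-κB pathway from an enrichment analysis of genes that differed between pLV-Exo-Wnt5a and Exo, not Con. It then examined the pathway by other means. Here the pathway was described through its subunits and its targets. Of 20 subunits and regulators, 11 were higher and 9 lower, with a median log2FC of 0.02. None passed Q under 0.05 in edgeR or DESeq2, and 3 higher genes did in voom. At an unadjusted p under 0.05, 3 were higher and 1 lower, against 4.20% and 4.15% of all tested genes. Rela, the p65 subunit, was at 74.8, 64.9 and 62.7 CPM in the Con libraries and 62.8, 61.6 and 67.6 CPM in the treated libraries (log2FC -0.09, Q = 0.826 from edgeR). Nfkbia, the inhibitor IκBα and itself a target, was at 32.3, 27.2 and 25.4 CPM against 31.8, 28.4 and 36.3 CPM (log2FC 0.18, Q = 0.724). The groups overlapped for both genes. Bcl3, a nuclear IκB protein, had a log2FC of 1.63 (Q = 0.354) at under 2 CPM in every library. Of 20 tested target genes, 16 were higher, with a median log2FC of 0.26 and none at Q under 0.05 in edgeR. At an unadjusted p under 0.05, 7 were higher, against 4.20% of all tested genes. Lists share members, such as Lcn2 in the target, STAT3 and reactive astrocyte lists, so their counts are not independent of each other. In DESeq2 Cd14, a coreceptor for bacterial lipopolysaccharide, passed (log2FC 1.42, adjusted p = 0.0171), and in voom 4 higher genes did. RNA levels do not measure the phosphorylation or location of the proteins. The cytokine genes Il6, Il1b, Tnf and Il10, and Nos2, had at most 8 counts in any library and were not tested.

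All 35 ribosomal protein genes listed had a lower level in the treated group. Their log2FC ran from -0.32 to -0.07, with a median of -0.23. None passed Q under 0.05 in edgeR, DESeq2 or voom, and 22 were lower at an unadjusted p under 0.05, against 4.15% of all genes. All of them lie in the highest of the 4 abundance classes. In that class 2263 of 3772 genes were lower, 313 of them at this p. Their summed level was 24735, 21182 and 20503 CPM in Con replicates 1 to 3 and 19011, 18662 and 19219 CPM in treated replicates 1 to 3. Replicate 1 was the highest Con library, and without it the median was -0.14, with all treated libraries below both remaining Con libraries. The Exo libraries, at 19362, 19311 and 19742 CPM, were also below the Con libraries.

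**Figure D4:**
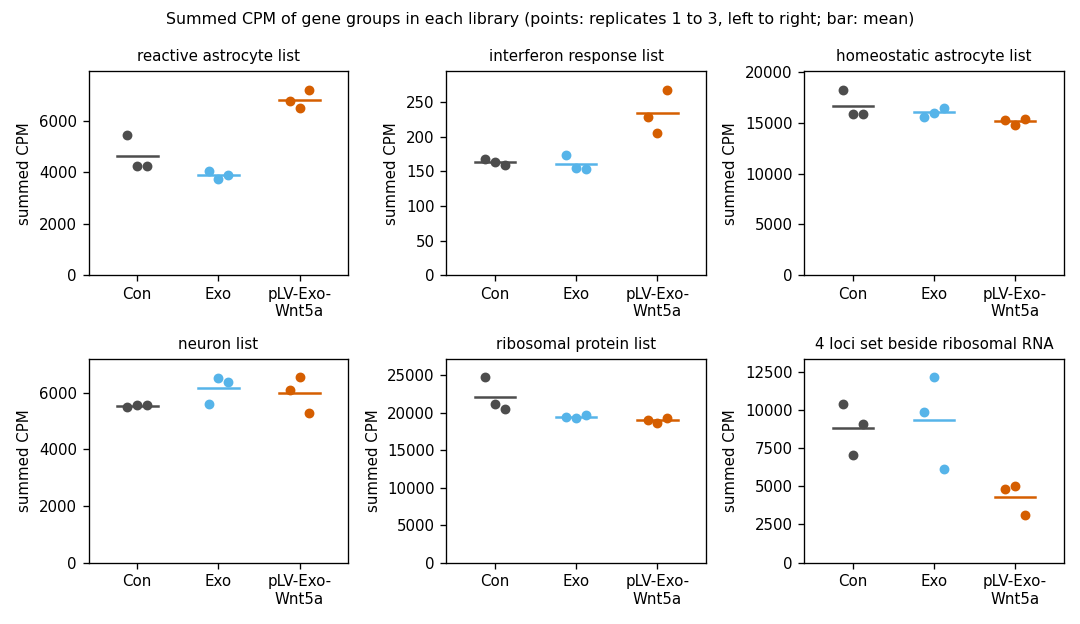
Summed CPM (y axis from 0) of 5 gene lists and of the 4 loci set beside ribosomal RNA in each library, with points for replicates 1 to 3 from left to right and bars for group means. The reactive astrocyte and interferon sums of the treated libraries are above those of both other groups, the ribosomal protein sums of the Exo and treated libraries are both below Con, and the neuron sums of the treated libraries overlap those of both other groups, while the Exo sums lie above the Con sums.

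Wnt5a (22418), the gene that the vector drives in the donor cells, was at 20.8, 26.1 and 29.8 CPM in the Con libraries and 30.8, 24.3 and 31.7 CPM in the treated libraries. The groups overlapped (log2FC 0.18, Q = 0.755 from edgeR), so the label of the treated group could not be checked by this gene in the recipient cells. Of 32 tested genes for Wnt5a receptors and noncanonical signaling, 17 were higher and 15 lower, with a median log2FC of 0.01 and none at Q under 0.05 in edgeR. At an unadjusted p under 0.05, 5 were lower and none higher, against 4.15% and 4.20% of all tested genes. In DESeq2 Celsr1 passed, and in voom 1 higher and 2 lower genes did. Celsr1, a cadherin of planar polarity, was at 213, 195 and 178 CPM against 142, 139 and 147 CPM (log2FC -0.46, Q = 0.152 from edgeR, adjusted p = 0.00558 in DESeq2). The receptor genes Fzd2 and Fzd8 had log2FC of -0.38 and -0.42 (Q = 0.418 and 0.480), and the Wnt5a receptor genes Ror2 and Ryk -0.25 and 0.03. Targets of β-catenin were divided, 9 higher and 7 lower of 16, with Axin2 at a log2FC of 0.09 and Ccnd1, cyclin D1, at 0.40 (Q = 0.440).

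Neuronal genes were higher in 22 of 24 cases by small amounts, with a median log2FC of 0.20 (0.12 without Con replicate 1). None passed Q under 0.05 in edgeR or DESeq2, and 3 higher genes did in voom, against 1.14% of all tested genes. At an unadjusted p under 0.05, 6 were higher and none lower, against 4.20% and 4.15% of all tested genes. Their summed level overlapped between the Con and treated groups, at 5484 to 5547 CPM in the Con libraries and 5289 to 6542 CPM in the treated libraries. Scg2, a secretory granule protein, was at 13.1, 20.5 and 19.1 CPM against 28.9, 28.7 and 22.8 CPM (log2FC 0.60, Q = 0.406 from edgeR). Tubb3, the neuronal β-III tubulin, was at 2000, 1718 and 1664 CPM against 1854, 2055 and 1521 CPM, a log2FC of 0.00 (SE 0.12). Gap43, a protein of growth cones, was at 330, 386 and 389 CPM against 446, 505 and 412 CPM, without overlap (log2FC 0.30, Q = 0.505 from edgeR). The neurofilament gene Nefl (log2FC 0.42, Q = 0.426) and the synaptic gene Snap25 (0.57, Q = 0.475) did not overlap between the groups either. Rbfox3, which encodes NeuN, had a log2FC of 0.06 (Q = 0.895) and Map2, a dendritic protein, one of -0.04 (Q = 0.966), and both overlapped between the groups.

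Genes of neural stem and progenitor cells were divided, with 11 higher and 9 lower of 20 and a median log2FC of 0.00, although Hopx rose and Tnc fell among them. The split followed single libraries, at 7 higher and 13 lower without Con replicate 1, 6 and 14 without treated replicate 3 and 12 and 8 without treated replicate 2, with medians of -0.08, -0.09 and 0.04. Hes5, a target of Notch, was at 185, 160 and 159 CPM against 130, 127 and 126 CPM (log2FC -0.41, Q = 0.224 from edgeR, adjusted p = 0.0275 in DESeq2), while Sox2 had a log2FC of 0.15 and Nes 0.20. Genes of the oligodendrocyte lineage had 7 higher and 10 lower members of 17, with Gpr17, a receptor of immature oligodendrocytes, at a log2FC of -0.30 (Q = 0.433). At an unadjusted p under 0.05, 1 was higher and 4 were lower, against 4.20% and 4.15% of all tested genes. Their summed level was 4103 to 4564 CPM in the Con libraries and 3617 to 3996 CPM in the treated libraries, without overlap. None passed in edgeR or DESeq2, and 1 lower gene did in voom. Of 23 proliferation genes, 10 were higher and 13 lower, a split that turned with single libraries, to 18 and 5 without treated replicate 2, 16 and 7 without Con replicate 1 and 5 and 18 without treated replicate 3. Mki67 was at no more than 1.25 CPM in any library. Of 18 genes of microglia and macrophages, 10 were higher and 8 lower (13 and 5 without treated replicate 3), and none passed in edgeR. At an unadjusted p under 0.05, 3 were higher and 1 lower, against 4.20% and 4.15% of all tested genes. The higher ones were Cd14 (log2FC 1.42), the lysozyme gene Lyz2 (0.60) and the Fc receptor gene Fcgr3 (2.08). They did not overlap between the groups, as in 7.67% of all tested genes. Fcgr3 had 8, 8 and 1 counts in the Con libraries and 30, 31 and 15 in the treated ones, which alone took it past the filter. Cx3cr1, the fractalkine receptor, was lower (-1.40), and Cd14 passed in DESeq2. The list had a summed level of 90.5 to 93.1 CPM in the Con libraries and 91.9 to 100 CPM in the treated libraries, and the defining genes P2ry12 and Tmem119 did not pass the filter. The part of these cells in the higher level of Ccl6, a gene of myeloid cells, was not tested. Of 32 matrix genes, 18 were higher and 14 lower (14 and 18 without treated replicate 1), and 3 were higher and 4 lower at an unadjusted p under 0.05. Their summed level was 5460 to 5762 CPM in the Con libraries and 4659 to 4993 CPM in the treated libraries, without overlap. Bcan, which encodes brevican, was at 2183, 1887 and 1856 CPM against 1457, 1457 and 1410 CPM (log2FC -0.46, Q = 0.203 from edgeR, adjusted p = 0.00306 in DESeq2), without overlap, and without Con replicate 1 it passed with a log2FC of -0.38 (Q = 0.0174).

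Values of the Exo libraries are set side by side with the others, since the comparisons share libraries. Serpina3n was at 35.0, 35.97 and 36.9 CPM in the Exo libraries, at the lower end of the Con range, and the log2FC of pLV-Exo-Wnt5a against Exo was 2.76 (Q = 2.64e-08 from edgeR on those 6 libraries). C4b was at 26.3, 26.7 and 27.2 CPM in the Exo group, below all Con libraries, with a log2FC of 1.62 against it. Against Exo, 66 of 15132 genes (0.436%) had Q under 0.05 in edgeR, 52 higher (0.344%) and 14 lower (0.0925%). Of the 13 genes, Net1 had Q = 0.0506 and Tnc Q = 0.0563 in that comparison, and the other 11 ran from 2.64e-08 (Serpina3n) to 0.0451 (Hopx). Since both comparisons use the same treated libraries, this is no independent support. Tnc was at 233, 223 and 253 CPM in the Exo libraries, between both other groups. For Celsr1 the Exo libraries were at 137, 121 and 144 CPM, 1 of them within and the other two below the range of the treated libraries (log2FC 0.10, Q = 0.617), and for Scg2 at 25.5, 30.0 and 28.2 CPM (log2FC -0.05, Q = 0.913). A Q of that size does not show that the preparations act alike.

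The 13 calls rested on all 6 libraries to different degrees. Serpina3n passed in all 6 fits with 1 library left out, with a log2FC between 2.18 and 2.68, H19 in 4 and C4b in 3. The matrix genes Tnc and Tnn, H2-D1, H2-Q4, Net1 and S1pr3 passed in 2 of 6, and Ggta1, Serpina3i, Ccl6 and Hopx in 1 of 6. Their direction was kept throughout. Of the 9 other settings, 11 of the 13 genes passed in all. Ccl6 and Serpina3i had too few Con counts to be tested with at least 10 counts in every library, and Serpina3i did not pass in the fit of all 9 libraries (Q = 0.0865 from edgeR). When Con replicate 1 was left out, 18 genes had Q under 0.05, and 10 of the 13 were among them, without Serpina3i (Q = 0.0980), Ggta1 (0.0660) and Ccl6 (0.0523). With Con replicate 2 or treated replicate 3 left out, Serpina3n was the 1 gene that passed, with treated replicate 2 left out 2 genes passed and with treated replicate 1 left out 3.

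**Figure D5:**
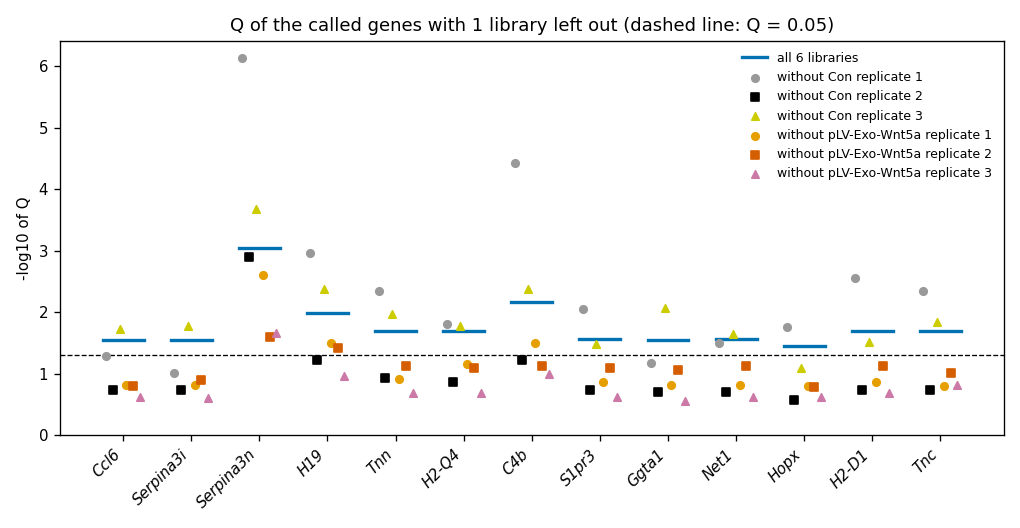
-log10 of Q from edgeR (y axis) for the 13 genes with all 6 libraries (blue bars) and with 1 library left out (points). The points of Serpina3n all lie above the dashed line at Q = 0.05, and those of the other 12 genes fall on both sides of it.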

How the data were processed

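RNA-seq libraries of NSCs from the Con and pLV-Exo-Wnt5a groups (n = 3 each) were compared. The Exo group (n = 3) served for values set side by side and for a test of pLV-Exo-Wnt5a against Exo by the same method. The table that the authors deposited holds raw counts as whole numbers, 1 per gene and library. The submitters' processing notes name Bowtie2, RSEM 1.3.1 and DESeq2 1.4.5, while the study's methods name HISAT2; the genome build is not given in the sources used here. How reads of rat cells were assigned to genes with mouse symbols could affect levels, which was not tested. The table's annotation columns of pathways were not used, and 0 count columns lacked a sample.

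Genes passing filterByExpr over the 6 compared libraries entered edgeR 4.0.16 (R 4.3.3), where TMM factors were computed and a quasi-likelihood test was made, with Benjamini-Hochberg adjustment over all 15089 genes. The standard error was taken from the test statistic. CPM was normalized by TMM over all 9 libraries. The steps were tested on simulated data. The members, the 27 gene lists and the rule for naming genes were chosen with earlier results of these data known. Some genes are in several lists. The rule names all genes with Q under 0.05, in a direction with fewer than 10 of these the genes of smallest p whose libraries do not overlap, the 5 per direction with the largest CPM difference, up to 3 members per list by p, and markers the study measured by other means; other members were named after their values were seen. Alternatives were RLE normalization, no filter on low counts, a minimum of 10 counts in all 6 libraries, DESeq2 1.42.0, limma 3.58.1 (voom with sample quality weights), robust empirical Bayes, all 9 libraries in 1 fit, the replicate number as a block, each library left out and, added after the data were seen, 4 ribosomal RNA overlapping loci left out. Gene length and GC content were not examined.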

Additional observations from a re-analysis of the deposited data

How the results depend on the processing

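The number of genes with Q under 0.05 and more than a 2-fold change (10) was 33 without a filter on low counts, 26 with DESeq2 and 65 with limma voom and sample quality weights, and each of these held all 10. Without the fold limit (13) these settings gave 86, 79 and 287, each with all 13. For the longer list (326) there were 592 without the filter and 704 with voom. The cause was not tested. The other settings, apart from the block and leaving out single libraries, stayed within 1.5 times of all 3 counts. Leaving out 1 library gave from 1 to 12 genes with the fold limit, from 1 to 18 without it and from 283 to 662 at the unadjusted p, the last without Con replicate 3.

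The labels give the libraries a replicate number and no other pairing. Deviations of same-numbered libraries had r across genes of -0.0023, -0.0133 and 0.0070, and those of differently numbered ones -0.0434 to 0.0496. These values do not settle whether the number stands for a shared batch. With the replicate number as a block, 20 genes passed with the fold limit and 38 without it, and 2 named genes near 0 changed sign, Tubb3 (log2FC -0.000610) and Map2 (0.0025). With 1 library left out, the log2FC crossed 0 for Tubb3 (-0.0883 to 0.12), Map2 (-0.27 to 0.18), ND3 (-0.0805 to 0.61), Rbfox3 (-0.0435 to 0.16), Nes (-0.0415 to 0.38), Rela (-0.14 to 0.00372) and Aif1 (-0.13 to 0.40), none of which passed with all libraries.

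Depth limits the scarce genes: below 0.0727 to 0.0913 CPM no level can be told from 0, and Ccl6 and Serpina3i are near it in the Con group.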

Other observations

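DESeq2 on the same 6 libraries passed 52 higher and 27 lower genes at an adjusted p under 0.05. Some of these were not described above, and they were chosen after their values were seen. Thbs2, a member of the matrix list that encodes thrombospondin-2, was at 3.21 ± 0.458 CPM in Con and 7.75 ± 2.67 CPM in pLV-Exo-Wnt5a libraries (SD, n = 3 each; log2FC 1.26 in edgeR). Slc14a1, a urea transporter of astrocytes, was at 4.003 ± 0.679 CPM against 8.43 ± 2.28 CPM (SD, n = 3 each; log2FC 1.07). A2m, the protease inhibitor alpha-2-macroglobulin, was at 176 ± 16.9 CPM against 273 ± 53.7 CPM (SD, n = 3 each; log2FC 0.63). In edgeR Q was 0.209 for each of these 3 genes, while the adjusted p of DESeq2 was between 0.00143 and 0.00316. Of the lower genes, Dhrs3, a retinal reductase, was at 20.4, 18.3 and 19.6 CPM in the Con libraries and 10.8, 13.7 and 9.98 CPM in the pLV-Exo-Wnt5a libraries, with an adjusted p of 0.000959 in DESeq2 and Q = 0.152 in edgeR. Which of the tools is nearer to the truth for these genes cannot be read from the data. Mfge8, a secreted phagocytosis adaptor, was at 1565, 1334 and 1280 CPM against 1034, 855 and 1030 CPM, with a log2FC of -0.53 (Q = 0.209 in edgeR), and passed in DESeq2 as well.

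Of the lists not described above, 12 genes of fibroblasts, mural and endothelial cells were tested, 8 higher and 4 lower, with none at Q under 0.05 in edgeR, 1 higher and 1 lower at an unadjusted p under 0.05, and Pdgfrb, a pericyte receptor gene, lower in DESeq2 (log2FC -0.67, adjusted p = 0.0182). The 12 mitochondrially encoded genes tested were divided, 6 higher and 6 lower, and the 20 genes of cholesterol synthesis 10 and 10. None of either list passed in edgeR, DESeq2 or voom, with 0 and 1 at an unadjusted p under 0.05. The mitochondrial split turned with single libraries, from 4 higher and 8 lower to 9 and 4.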
